A study of Mus musculus with 8 samples.

Results

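The genes described here are 34 markers of the dividing cell, chosen by name as a replication module of 16 genes and a mitotic module of 18 genes. The replication module holds genes of the helicase, its loading or its activation (Mcm2, Mcm3, Mcm4, Mcm5, Mcm6, Mcm7, Mcm10, Cdc6, Cdt1 and Gins2). It also holds the sliding clamp Pcna, the nucleotide supply enzymes Rrm1, Rrm2 and Tyms, and the cyclins Ccne1 and Ccne2. The mitotic module holds cyclins and their kinase (Ccna2, Ccnb1, Ccnb2 and Cdk1), mitotic kinases and checkpoint or passenger proteins (Plk1, Aurka, Aurkb, Birc5, Bub1 and Cdc20), spindle proteins (Kif11, Kif20a, Tpx2, Nusap1 and Cenpe) and the chromosome or matrix proteins Top2a, Mki67 and Cenpf. All 34 had a probe that passed the detection filter, out of 25404 features tested, of which 15114 carried a gene symbol. Another 5 lists stand for the rest of the cell cycle.

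The samples were Lgr5-high intestinal stem cells sorted from mice, hybridised to 8 one-colour Agilent arrays with 4 arrays per genotype. Every mouse carried floxed Irf2 alleles (Irf2fl/fl) and the Lgr5-EGFP-Ires-CreERT2 allele, in which the Lgr5 locus drives EGFP and a tamoxifen-dependent Cre. The arrays labelled Irf2_AhcKO came from mice that also carried AhCre, a Cre under the Cyp1a1 promoter that β-naphthoflavone switches on, and the control arrays from mice labelled without it. All mice received β-naphthoflavone on 5 days in a row and cells were taken 1 month later, so the controls share the agent and the Lgr5 allele. The labels give no age. IRF2 is a transcription factor of the interferon regulatory family that binds interferon response elements in gene promoters. The comparison asks how the stem cell transcriptome differs once Irf2 has been targeted in the epithelium.

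A cell prepares to copy its DNA in G1 by loading the MCM helicase with the help of CDC6 and CDT1, and the copying itself uses PCNA and a supply of deoxynucleotides. Genes of this step are classical targets of E2F factors. Genes of mitosis are transcribed later, in G2 and M, through a promoter element called the cell cycle genes homology region (CHR), bound by the DREAM and MYB-MuvB complexes, often together with CCAAT boxes. Lgr5-high crypt base cells are known to divide steadily, so both modules are active in them.

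E2F words stood mostly in replication promoters and CHR words in mitotic ones, and the stretches printed here show them in members that differed between slides or that carry several elements. They were chosen after those values were seen. RefSeq windows (GRCm38.p6, 250 bases before to 50 bases after the start) matched 27 of 34 members, namely 13 of the 16 replication and 14 of the 18 mitotic genes. Mcm4, Gins2, Ccne2, Ccna2, Aurkb, Kif20a and Tpx2 were not matched. The 180 bases before the start are given 5′ to 3′ in gene orientation, with E2F, CHR and CCAAT matches on either strand in capitals.
Cdc6, chr11:98907971-98908150, plus strand: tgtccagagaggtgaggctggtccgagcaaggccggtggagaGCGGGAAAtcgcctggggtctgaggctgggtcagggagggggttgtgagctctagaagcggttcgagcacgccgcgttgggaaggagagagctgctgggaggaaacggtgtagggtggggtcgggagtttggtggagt
Mcm7, chr5:138171884-138172063, minus strand: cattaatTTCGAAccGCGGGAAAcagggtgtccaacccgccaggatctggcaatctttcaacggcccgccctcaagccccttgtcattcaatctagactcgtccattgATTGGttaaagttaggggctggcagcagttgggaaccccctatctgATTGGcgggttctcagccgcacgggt
Mcm6, chr1:128359706-128359885, minus strand: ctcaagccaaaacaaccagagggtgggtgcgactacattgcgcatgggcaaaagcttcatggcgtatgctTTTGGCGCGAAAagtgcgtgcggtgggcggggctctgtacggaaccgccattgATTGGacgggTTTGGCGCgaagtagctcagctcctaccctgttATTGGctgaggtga
Cdk1, chr10:69352913-69353092, minus strand: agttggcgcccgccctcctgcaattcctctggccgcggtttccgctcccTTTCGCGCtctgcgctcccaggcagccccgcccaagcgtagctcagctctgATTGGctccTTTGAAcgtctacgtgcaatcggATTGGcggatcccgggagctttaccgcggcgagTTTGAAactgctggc
Top2a, chr11:99024190-99024369, minus strand: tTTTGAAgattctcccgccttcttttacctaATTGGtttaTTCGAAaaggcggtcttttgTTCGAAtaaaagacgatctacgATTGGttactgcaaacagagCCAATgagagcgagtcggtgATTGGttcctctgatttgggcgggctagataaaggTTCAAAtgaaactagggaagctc
Mki67, chr7:135716380-135716559, minus strand: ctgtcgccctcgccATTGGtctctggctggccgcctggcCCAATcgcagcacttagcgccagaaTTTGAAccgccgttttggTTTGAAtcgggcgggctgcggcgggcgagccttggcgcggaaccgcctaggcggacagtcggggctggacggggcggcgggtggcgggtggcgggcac
Kif11, chr19:37376202-37376381, plus strand: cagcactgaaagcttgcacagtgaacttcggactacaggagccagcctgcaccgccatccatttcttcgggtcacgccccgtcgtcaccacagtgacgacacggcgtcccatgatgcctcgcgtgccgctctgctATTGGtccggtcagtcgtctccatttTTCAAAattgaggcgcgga

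The E2F words searched were TTTCCCGC, TTTCGCGC, TTTGCCGC and TTTGGCGC on either strand. They occurred in 6 of 13 replication windows (46.2%), in 1 of 14 mitotic windows (7.14%, that of Cdk1) and in 2.6% of all 27025 genes of the table. The CHR words TTTGAA and TTCGAA occurred in 2 of 13 replication windows (15.4%), in 10 of 14 mitotic windows (71.4%) and in 21.7% of all genes. Of the printed stretches, Mcm6 held 3 E2F matches, of which some overlap, Top2a 4 CHR and 4 CCAAT matches, and Cdk1 both an E2F match and 2 CHR matches. Matches were counted also where they overlap. CCAAT occurred in 9 of 13 replication windows (69.2%), 12 of 14 mitotic windows (85.7%) and 41.1% of all genes. The interferon response element, searched as GAAA, any 2 bases and GAAA again, occurred in 0 of 27 member windows and in 3.99% of all genes. The other replication genes held E2F words in 19 of 48 windows (39.6%) and the other mitotic genes CHR words in 45 of 62 (72.6%). A match is only a run of letters and says nothing of binding.

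Signals are given as log2 of the spot signal relative to the 75th percentile of its array, so that 0 is the level of that percentile, and levels of different probes are not set against each other. Between 61.4% and 69.8% of spots were well above background on each array, with 0 saturated spots. Replicates 1 and 2 of both genotypes shared one slide and scan, and replicates 3 and 4 the other, so slide, scan and the mice on them cannot be told apart. The scanner data of control replicates 3 and 4 carry sample names that mention Ah-Cre. For most of the lists and genes described, though not all, the group difference is therefore also given within slide 1, which leaves these replicates out. The targeted gene did not measure below the controls in the Irf2_AhcKO arrays. Irf2 was 0.99, 0.55, 0.37 and 0.64 in control replicates 1 to 4 and 1.12, 1.1, 0.70 and 0.73 in those labelled Irf2_AhcKO, a difference of 0.27 ± 0.12 (SE; limma adjusted p = 0.429), with 0.34 within slide 1. No source used here says whether its probe lies in the deleted part, so the labels stay unchecked by it, and Irf2_AhcKO means the arrays labelled so in every direction below. Arrays of 1 genotype on 1 slide correlated at 0.986 to 0.988 over all features.

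The sorted cells carried the stem cell genes. Of 8 Lgr5 stem cell markers 7 were measured, all well above background on 8 arrays, with array means of 3.26 to 3.53 in controls and 3.19 to 3.51 in Irf2_AhcKO. Of these 7, 6 were lower in Irf2_AhcKO (median -0.11, and -0.12 within slide 1), among them Lgr5 at -0.29 ± 0.16 and Ascl2 at -0.46 ± 0.20 (SE), and none passed the test. Ascl2 was at -0.85 within slide 1 but -0.07 within slide 2, and Lgr5 at -0.33 and -0.24. Tnfrsf19 went the other way at 0.56 ± 0.24 (0.64 within slide 1), the largest difference of the list. Markers of other cells differed in their array means between the groups, although none of those in the enterocyte and leukocyte lists passed the test. The mean of 9 enterocyte markers was 0.05 to 1.1 in controls and -0.77 to -0.31 in Irf2_AhcKO, with summed linear levels of 91.5 to 1476 and 66.1 to 82.7 times the 75th percentile, and 8 of 9 were lower (median -0.79, and -0.91 within slide 1). The top of both control ranges came from control replicate 4, where the enterocyte gene Sis was at 10.4 against -1.74, -1.66 and -0.79 on the other controls. Without that array the control means were 0.05 to 0.48 and the sums 91.5 to 111. The mean of 10 of 12 leukocyte markers was -1.71 to -1.30 in controls and -1.27 to -1.23 in Irf2_AhcKO (summed levels 6.81 to 9.34 and 9.38 to 11.3), and 8 of 10 were higher (median 0.25, and 0.18 within slide 1), while Cd3g and Cd8a did not pass the detection filter. The narrow separation of these 2 ranges of leukocyte means rested on Cd79b, at 1.33 ± 0.28 (SE) and 0.68 within slide 1. Cd79b was not the only marker that lay higher. Fcer1g was at 0.53 ± 0.20 (0.17 within slide 1) and Nkg7 at 0.40 ± 0.14 (0.67 within slide 1), while 2 of the 10 were lower. Cd79b was -3.46, -3.60, -4.67 and -5.25 in controls, well above background on 2 of 4 arrays. In Irf2_AhcKO it was -2.73, -2.96, -3.00 and -2.98. The other marker lists, Paneth and goblet (8 of 9 measured, 3 higher), pan-epithelial (7, 2 higher) and mesenchymal and endothelial (5 of 7, 0 higher, with Col1a1 and Cdh5 not passing), had overlapping array means. In 8 bulk samples fewer cells of a type and less RNA per cell cannot be told apart, and the part of these markers in the results below was not tested.

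Neither module differed between genotypes beyond the replicate spread. None of the 34 members passed the test (limma with a slide term, two-sided, adjusted p below 0.05), against 0.0984% of all features, which is 25 of them, and 0 features with replicate as a block (3293 at an unadjusted limma p below 0.05). The smallest adjusted p among members was 0.366. At an unadjusted p below 0.05 there were 2 members, Aurkb and Cenpf, against 11.7% of all features. The members lay slightly above 0. The median difference, Irf2_AhcKO minus control, was 0.07 for the replication genes and 0.08 for the mitotic genes, while that of all features was -0.00242, and 30 of 34 members were on the higher side (13 of 16 and 17 of 18) against 49.5% of all features. This lean rested on few arrays. Without control replicate 2 the mitotic median was 0.00455 with 10 of 18 higher, without control replicate 3 the replication median was 0.0014 with 8 of 16 higher, and without Irf2_AhcKO replicate 4 it was -0.01 with 7 of 16 higher. Within slide 1 the medians were -0.03 for replication (7 of 16 higher) and 0.13 for mitosis (13 of 18 higher), and within slide 2 they were 0.19 (15 of 16) and 0.09 (14 of 18).

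**Figure D1:**
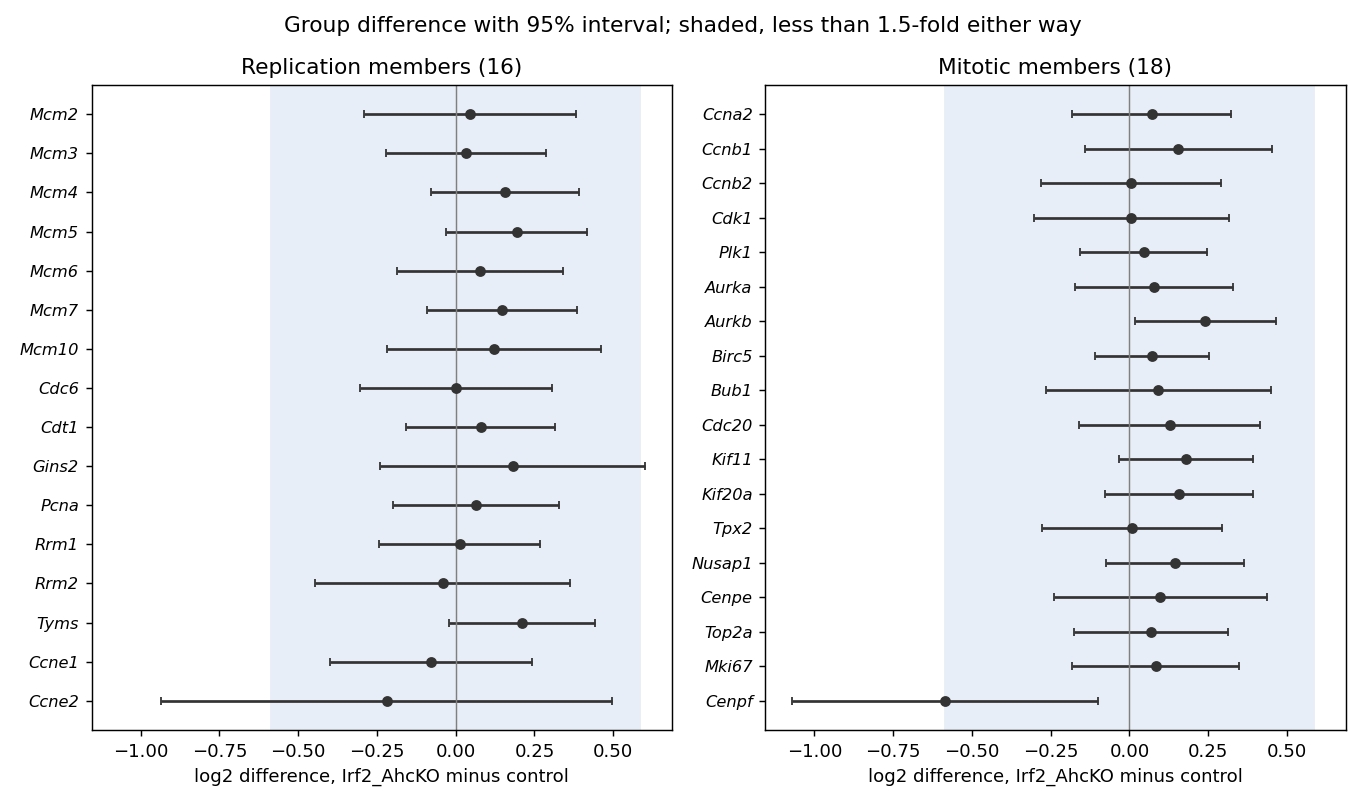
Log2 difference of each of the 34 members, Irf2_AhcKO minus control, with its 95% interval from limma (4 arrays per group). The shaded band marks differences of less than 1.5-fold either way, and 31 of the 34 intervals lie inside it.

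The differences were bounded closely for most members. The 95% interval of the group difference lay within 1.5-fold in both directions for 14 of 16 replication and 17 of 18 mitotic genes, against 66.5% of all features. The exceptions were Ccne2 (-0.22, interval -0.935 to 0.497), Gins2 (0.18, interval -0.240 to 0.602) and Cenpf. Close bounds were not particular to the members, as intervals lay within 1.5-fold for 94.2% of other mitotic and 84.7% of other replication genes. Of the members 97.1% were well above background on all 8 arrays, against 87.1% of all features. The median residual SD of the members was 0.156, compared with 0.186 over all features. Of the 34 differences 19 had the same sign on both slides, against 62.2% of all features.

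Among the genes of the helicase, its loading or its activation all 10 differences were at or above 0. They ran from 0.00 for Cdc6 to 0.19 ± 0.095 (SE) for Mcm5 (limma adjusted p = 0.468, and 0.13 within slide 1). Mcm7, a subunit of the replicative helicase, was 6.07, 6.06, 5.57 and 5.74 in controls and 6.23, 6.14, 5.65 and 6.02 in Irf2_AhcKO. Its groups overlapped, with a difference of 0.15 ± 0.10 (adjusted p = 0.570; 0.12 within slide 1). Cdc6, which brings the helicase to origins, was 2.02, 2.10, 0.89 and 1.01 in controls and 1.79, 1.79, 1.13 and 1.34 in Irf2_AhcKO. It was lower in Irf2_AhcKO on slide 1 (-0.27) and higher on slide 2 (0.28). This was the only member whose slide by genotype term had an unadjusted p below 0.05 (limma adjusted p = 0.999), against 4.29% of all features, and 0% of features passed after adjustment.

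The clamp and nucleotide genes ranged from -0.04 for Rrm2, a subunit of ribonucleotide reductase, to 0.21 for Tyms, the thymidylate synthase. Tyms was -0.29, -0.20, -0.33 and -0.19 in controls and 0.07, -0.19, -0.15 and 0.10 in Irf2_AhcKO. It was the 1 member whose groups did not overlap, against 3.85% of all features, with a difference of 0.21 ± 0.098 (limma adjusted p = 0.453; 0.19 within slide 1). Pcna was 4.34, 4.43, 4.26 and 4.47 in controls and 4.32, 4.34, 4.37 and 4.73 in Irf2_AhcKO, a difference of 0.06 ± 0.11 that was -0.056 within slide 1. Both cyclin E genes, which drive entry into S phase, had negative differences that did not pass the test. For Ccne1 it was -0.08 ± 0.14 (-0.15 within slide 1), while a second kept probe of Ccne1 gave 0.13. Ccne2 was -3.70, -2.51, -3.57 and -4.22 in controls and -3.66, -3.68, -3.55 and -4.00 in Irf2_AhcKO, so its difference rested on control replicate 2. It was 0.088 without that array, -0.56 within slide 1 and 0.12 within slide 2.

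Among the mitotic genes 17 of 18 differences lay between 0.01 and 0.24. Aurkb, the kinase of the chromosomal passenger complex, was -2.66, -2.75, -2.0 and -2.10 in controls and -2.60, -2.27, -1.89 and -1.79 in Irf2_AhcKO. Its difference was 0.24 ± 0.095 (limma unadjusted p = 0.0384, adjusted p = 0.405), and it was positive on both slides (0.27 and 0.21), although the groups overlapped and the difference was 0.13 with normexp background correction. Its partner Birc5, the passenger protein survivin, differed by 0.07 ± 0.077, the smallest SE among the members, and by 0.12 within slide 1. Kif11, the motor that separates the spindle poles, differed by 0.18 ± 0.090 and Kif20a, a motor of the central spindle, by 0.16 ± 0.10, with 0.19 and 0.22 within slide 1. Mki67, the proliferation marker Ki-67, was 4.83, 4.45, 5.24 and 4.94 in controls and 4.73, 4.81, 5.14 and 5.11 in Irf2_AhcKO, with a difference of 0.08 ± 0.11 (0.13 within slide 1). Cenpf, a kinetochore protein, was the lone negative difference. It was -4.11, -4.33, -3.69 and -3.18 in controls and -4.38, -4.65, -4.00 and -4.62 in Irf2_AhcKO, with a difference of -0.59 ± 0.21 (adjusted p = 0.366) that was -0.29 within slide 1 and -0.88 within slide 2. Its probe was well above background on 3 of 4 control arrays and 1 of 4 Irf2_AhcKO arrays, so this value lies close to background.

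**Figure D2:**
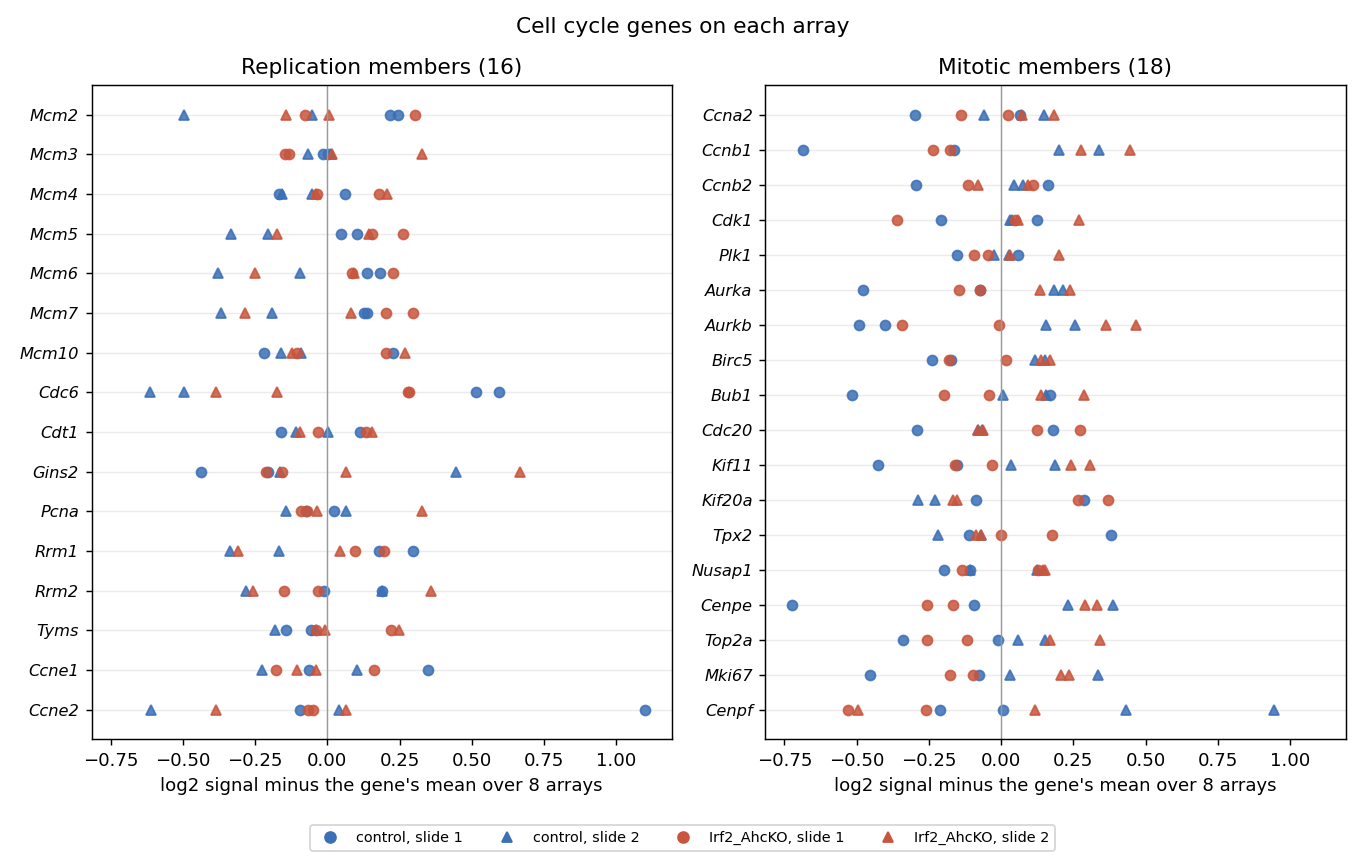
Log2 signal of each member on each of the 8 arrays, minus the gene's own mean; colour gives the genotype and shape the slide. Genotypes overlap for every gene but Tyms, whereas triangles and circles separate for Cdc6, Mcm7 and Rrm1 and for mitotic genes such as Ccnb1, Aurkb and Cenpe.

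More members passed the test between slides than between genotypes, and so did more of all features. With the 75th percentile scaling, only the calls of mitotic genes as higher on slide 2 stood above the share of all features. Of the mitotic genes 15 of 18 were higher on slide 2, with a median difference, slide 2 minus slide 1, of 0.29. Of the replication genes 11 of 16 were lower, with a median of -0.09, while the median of all features was -0.08. Of all 25404 features 10825 were higher and 14579 lower on slide 2. After adjustment 8 mitotic genes were called higher, against 12% of all features (3046), and 1 lower, against 23.5% (5970). Among replication genes 0 were called higher and 3 lower. Slides did not overlap in 9 of 18 mitotic and 3 of 16 replication genes, against 35% of all features. The position of 0 depends on the scaling. When arrays were scaled to their medians, the median of all features was 0.057, that of the replication genes 0.04 (1 called lower, 1 higher) and that of the mitotic genes 0.43 (12 called higher, 0 lower), and 19.5% of all features were called higher and 16.5% lower. With quantile normalization 11 of 16 replication genes were lower and 3 were called lower, against 19.9% of all features. With normexp 13 of 16 were lower, with 5 called lower and 1 higher, against 23.3% and 13.5% of all features. The replication median was thus below 0 under the 75th percentile, quantile and normexp settings and above 0 with median scaling, so its direction depends on the scaling. The mitotic median was above 0 under all 4 of these settings.

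Cdc6 had the largest slide difference among the replication genes, -0.84 ± 0.13 (SE; limma adjusted p = 0.00333), or 0.560 of its slide 1 level, and all 4 slide 2 arrays lay below all 4 slide 1 arrays. Rrm1, the large subunit of ribonucleotide reductase, was 3.66, 3.54, 3.56 and 3.45 on slide 1 and 3.02, 3.19, 3.05 and 3.40 on slide 2, a difference of -0.38 ± 0.11 (adjusted p = 0.0301). Mcm7 differed by -0.38 ± 0.10 (adjusted p = 0.0243). With median scaling Rrm1 (-0.25, adjusted p = 0.0916) and Mcm7 (-0.24, adjusted p = 0.0769) no longer passed. Both passed with quantile normalization (limma adjusted p = 0.0383 and 0.0255) and with normexp (limma adjusted p = 0.0166 and 0.0102). Gins2, a subunit of the active helicase, lay on the other side at 0.50 ± 0.18 but did not pass (adjusted p = 0.065), although it did with median scaling (0.64, adjusted p = 0.0212) and normexp (0.44, adjusted p = 0.0427).

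Ccnb1, the cyclin that activates CDK1 at mitotic entry, was 1.59, 1.07, 1.52 and 1.58 on slide 1 and 2.09, 1.96, 2.20 and 2.03 on slide 2. The difference was 0.63 ± 0.13 (limma adjusted p = 0.00856), a 1.55-fold higher level. Cenpe, a kinetochore motor, differed by 0.62 ± 0.14, and Aurkb by 0.62 ± 0.095, which was 0.19 with normexp background correction, where Cenpe was at 0.54. Mki67, Kif11, Aurka, Top2a (the DNA topoisomerase of condensing chromosomes) and Birc5 were called higher with differences of 0.29 to 0.40. Kif20a went the other way. It was 3.74, 3.37, 3.72 and 3.83 on slide 1 and 3.23, 3.17, 3.30 and 3.29 on slide 2, a difference of -0.42 ± 0.10 (adjusted p = 0.0168). With median scaling it was -0.28 and did not pass (adjusted p = 0.0669), while it passed with quantile normalization and normexp (limma adjusted p = 0.0172 and 0.0073). Cdc20 and Tpx2 also had negative values, -0.14 and -0.22, that did not pass. Paneth and goblet markers were higher on slide 2 in 8 of 8 genes (median 0.58, 4 called), and their part in this result was not tested.

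**Figure D3:**
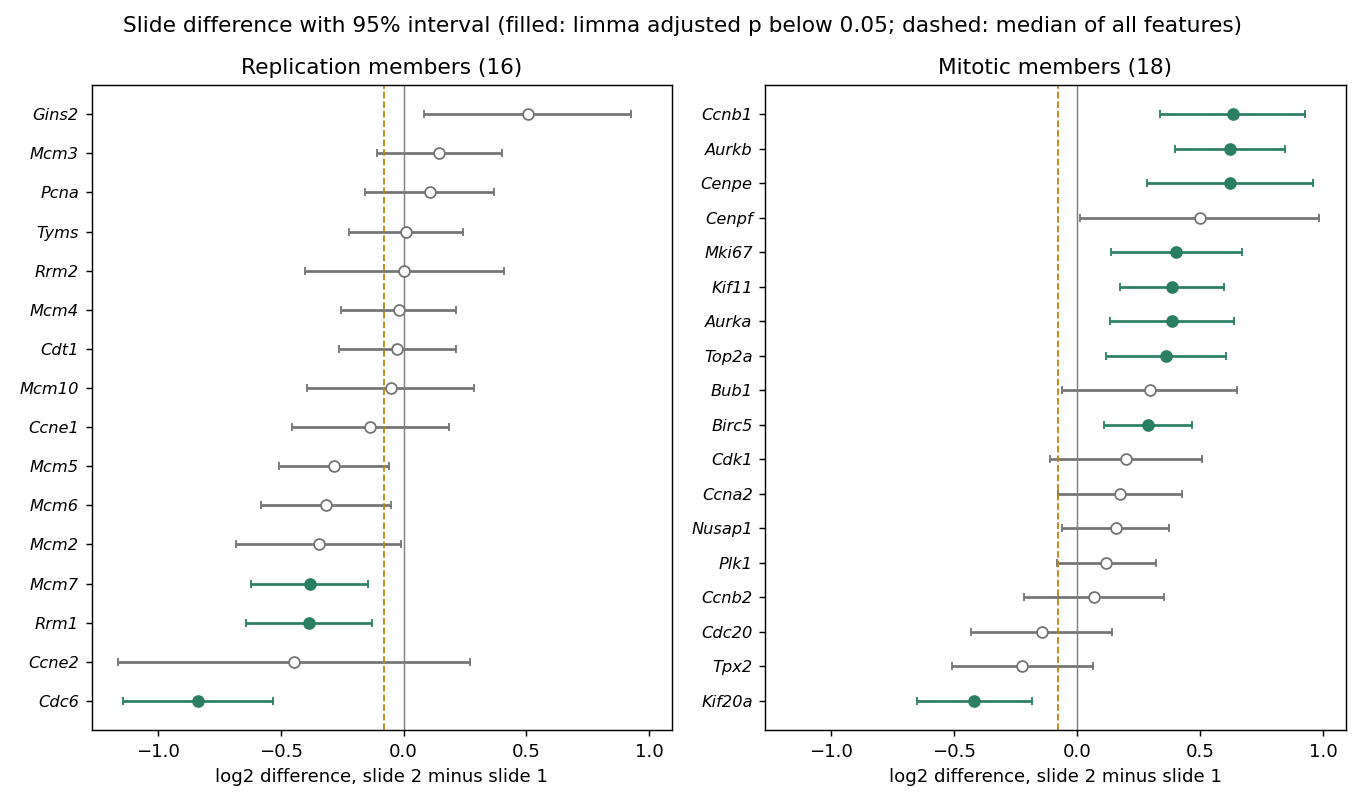
Log2 difference, slide 2 minus slide 1, for each member with its 95% interval, sorted within module; filled points passed the test and the dashed line is the median of all features at -0.08. Of the mitotic genes 8 are called higher and Kif20a lower, and of the replication genes Cdc6, Rrm1 and Mcm7 are called lower.

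The module means per array show which arrays carry these differences. The mean of the 18 mitotic genes was 1.85, 1.5, 1.96 and 1.95 in control replicates 1 to 4 and 1.71, 1.83, 1.99 and 1.97 in Irf2_AhcKO, so all slide 2 arrays lay above all slide 1 arrays. Control replicate 2 was the lowest array for 14 of the 18 mitotic genes. Without it, the slide median of the mitotic genes was 0.21 and 5 were called higher, 5 also without Irf2_AhcKO replicate 3 or 4, and 4 without control replicate 3 or Irf2_AhcKO replicate 1. In these fits 8.32% to 9.31% of all features were called higher. The mean of the 16 replication genes was 2.29, 2.29, 1.96 and 2.09 in controls and 2.31, 2.17, 2.06 and 2.33 in Irf2_AhcKO. Here control replicate 3 was lowest for 9 of 16 genes and Irf2_AhcKO replicate 4 highest for 8 of 16. The replication mean minus the mitotic mean was 0.434 and 0.786 in the controls and 0.606 and 0.342 in the Irf2_AhcKO arrays of slide 1. On slide 2 it was 0.00444 and 0.14 in the controls and 0.0712 and 0.358 in Irf2_AhcKO. Only Irf2_AhcKO replicate 4 reached the range of slide 1. The 3 replication genes called lower between slides became 1 without control replicate 1, 2 or 3 or Irf2_AhcKO replicate 1 or 3, and 5 without Irf2_AhcKO replicate 4. Of all features 19.2% to 20.6% were called lower in these fits.

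**Figure D4:**
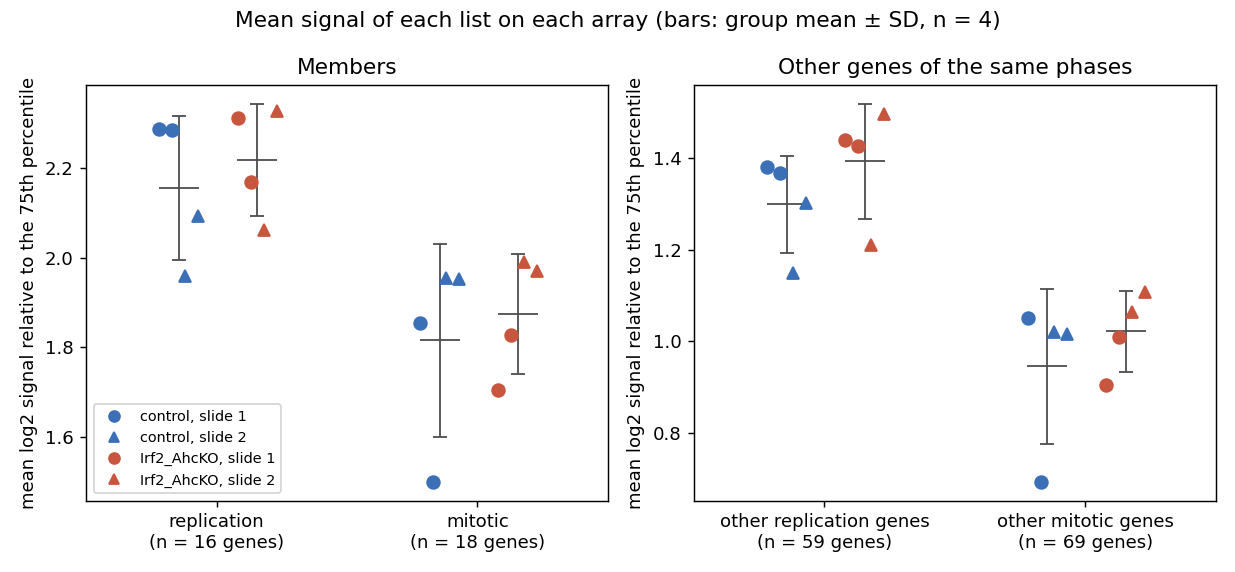
Mean log2 signal of each list on each array for the members (left) and for the other replication and mitotic genes (right); bars give the group mean ± SD of 4 arrays. All slide 2 triangles of the mitotic members lie above the slide 1 circles, while the groups overlap in all 4 lists.

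The rest of the cell cycle was read from 5 further lists. No gene of the 5 passed the group test, and an unadjusted limma p below 0.05 was found in 4 of 59 other replication genes, 2 of 69 other mitotic genes, 2 of 13 G1 genes, 0 of 14 inhibitors and 1 of 23 E2F, Rb and DREAM regulators, against 11.7% of all features. Of 59 measured other replication genes 44 were higher (median 0.09, and 0.05 within slide 1), and of 69 other mitotic genes 55 were higher (median 0.08, and 0.10 within slide 1). Between slides 16 of 69 other mitotic genes were called higher and 7 lower, and 6 of 59 other replication genes higher and 17 lower, against 12% of all features higher and 23.5% lower. The median slide difference was 0.15 for the other mitotic genes and -0.09 for the other replication genes, the latter near the -0.08 of all features. The 3 smallest unadjusted p-values of each list were taken as examples. Timeless, a fork protection protein, differed between groups by 0.34 ± 0.13 (SE; limma adjusted p = 0.380), Dnmt1, the maintenance DNA methyltransferase, by 0.25 ± 0.095 and Chek1, a checkpoint kinase, by 0.26 ± 0.11. Within slide 1 they differed by 0.38, 0.33 and 0.25. Tacc3, a spindle protein, was 4.37, 4.16, 4.42 and 4.36 in controls and 4.49, 4.49, 4.58 and 4.66 in Irf2_AhcKO, with no overlap, a difference of 0.23 (0.22 within slide 1) and an adjusted p of 0.359. Ccnf, the cyclin of an SCF ubiquitin ligase, was at -0.23 ± 0.070 and Cenpi, a centromere protein, at 0.21 ± 0.11, with -0.21 and 0.20 within slide 1.

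Of the cell cycle lists the G1 list had the widest range of differences, from -1.03 to 0.44. This list of G1 cyclins and their kinases also holds Myc, Mycn and Cdc37. Of its 13 genes 11 were lower (median -0.12, and -0.14 within slide 1). In 2 of them, Ccnd2 and Mycn, the groups did not overlap, against 3.85% of all features. Ccnd2, cyclin D2, was 3.34, 3.03, 2.97 and 3.04 in controls and 3.75, 3.53, 3.46 and 3.41 in Irf2_AhcKO, a difference of 0.44 ± 0.096 (limma adjusted p = 0.198; 0.46 within slide 1). Mycn, a growth-promoting transcription factor, was 1.36, 1.19, 0.29 and 0.94 in controls and 0.13, -0.29, 0.25 and -0.41 in Irf2_AhcKO, a difference of -1.03 ± 0.24 (adjusted p = 0.219; -1.36 within slide 1). Neither passed the test, and Cdk4 was at -0.12 ± 0.078 (-0.20 within slide 1). Of the 14 measured CDK inhibitors and antiproliferative genes 9 were higher (median 0.06), with Cdkn2b at 0.39 ± 0.21, Btg1 at 0.23 ± 0.13 and Tob1 at -0.33 ± 0.20. Within slide 1 they were at 0.48, 0.32 and -0.34, and the list median at 0.04. Of the 23 E2F, Rb and DREAM regulators 12 were higher (median 0.00), with Mybl2, the MYB factor of mitotic genes, at 0.49 ± 0.13 (adjusted p = 0.288), E2f8, a repressing E2F, at -0.25 ± 0.11 and Foxm1, another activator of mitotic genes, at 0.20 ± 0.094. Within slide 1 they were at 0.45, -0.25 and 0.23, and the list median at 0.00.

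**Figure D5:**
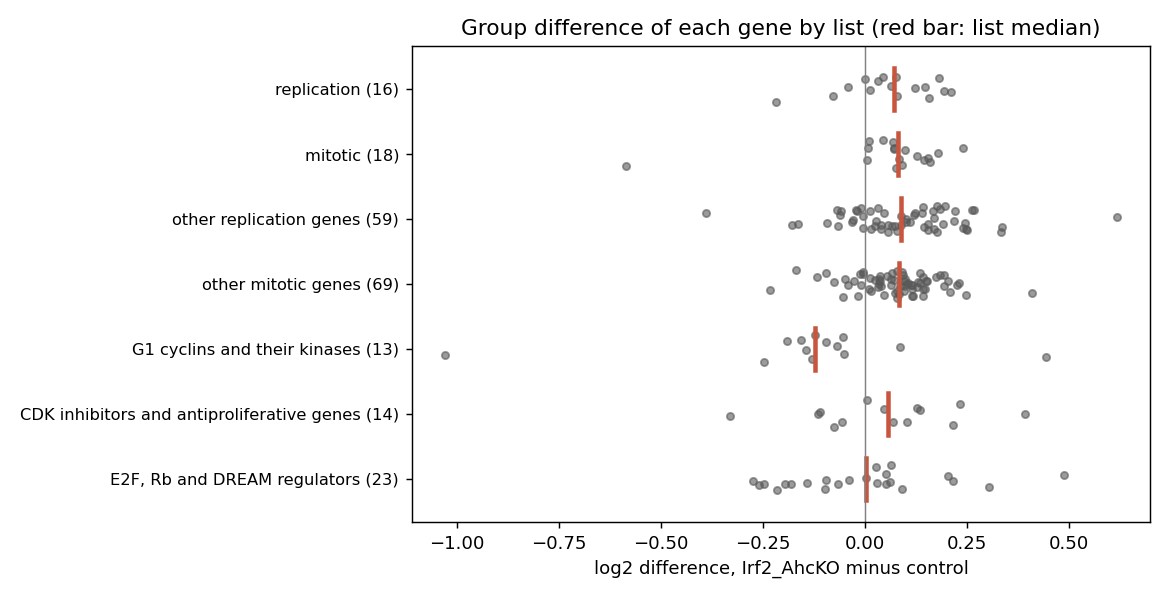
Group difference of each measured gene, Irf2_AhcKO minus control on the log2 scale, by list, with the list median as a red bar. The medians of the replication and mitotic lists lie between 0.07 and 0.09 and that of the G1 list at -0.12. The lowest point is Mycn at -1.03, a transcription factor kept in the G1 list.

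Few members had more than 1 probe to compare, and these probes did not always agree. Of 44 probes that name a member 43 were kept, and 6 members had more than 1. In 4 of these 6 all probes had 1 sign between groups, and in 5 of 6 between slides. The exceptions between groups were Ccne1 (-0.08 and 0.13) and Birc5 (0.07, -0.05 and -0.04). Sizes differed too, with 0.01 and 0.45 for Tpx2, whose second probe was well above background on 6 arrays. For Cdk1 the probes gave 0.01, 0.10 and 0.31 between groups but 0.20, 0.21 and -0.37 between slides, so its slide difference is not settled. For Ccnb1 the 3 probes gave 0.63, 0.41 and 0.20 between slides, all on the same side.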

How the data were processed

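RNA of sorted Lgr5-high cells was amplified from 20 ng per sample and 2 µg of labelled cDNA hybridised, per the labels' protocols. Scanner files with one-colour spot intensities were deposited, read by the authors with Agilent Feature Extraction 11.5.1.1 per the submitters' processing notes. The processed intensity was taken as log2 minus each array's 75th percentile over non-control spots. Spots of a probe were averaged without flagged outliers. Probes well above background on at least 4 of 8 arrays were kept, and the brightest kept probe stood for a gene. Symbols came from the RefSeq or Ensembl identifier of a probe, matched to RefSeq genes of GRCm38.p6 (28331 of 55681 probes had 1 symbol, 0 several and 27350 none). Groups were compared with limma 3.58.1 (R 4.3.3), slide and genotype as terms, with Benjamini-Hochberg adjustment over all 25404 features. The slide coefficient came from the same fit, and the interaction from a fit with both terms crossed. The fit was tested on simulated data.

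Whether the 4 arrays of a group are separate mice is not clear from the labels, which speak both of independent mice and of biological replicates, so the tests weigh differences against array-to-array spread, which may be technical. Deviations of same-numbered arrays from their group means correlated at 0.46, 0.49, 0.52 and 0.53 (0.05, 0.05, 0.21 and 0.21 with slide means removed), so replicate number was also fitted as a block. The deposited table of processed values was the scanner intensity multiplied by 1 constant per array (6.41 to 6.9), linear and not centred (column medians 207 to 246); how that constant was set is unknown. The files hold no mean spot signal, so normexp used the median. Members and lists were chosen with earlier results of these data known. Named genes were all members, the 3 with the smallest unadjusted p in each other cell cycle list, and Irf2. Alternatives changed the background correction, scaling, filter, probe rule, slide and replicate terms and left out each array. The number of arrays limits the precision.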

Additional observations from a re-analysis of the deposited data

Results flagged for a closer look

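In 68 sets of 4 arrays (34 members in each genotype) 2 held an array far from the others by Dixon's criterion, which chance meets in about 1 set in 20. Pcna was 4.73 on Irf2_AhcKO replicate 4, against 4.32 to 4.37 on the other arrays of that genotype. Nusap1, a spindle protein, was 1.51 on Irf2_AhcKO replicate 1, against 1.78 to 1.80 on the others.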

How the results depend on the processing

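No member was called between groups in any of the 21 alternative settings, and 15 of 34 kept 1 sign in all of them. The count over all features moved more. It was 25 as reported, 133 with normexp background correction (chosen after seeing the data, on median signals), 133 with trend and robust moderation, 46 with detection on all 8 arrays, which leaves out Cenpf, 7 with no filter on dim probes, 44 with slide as a random block, 0 within slide 1, 0 within slide 2, 0 with the replicate block, and 0 to 25 without 1 array. Within a slide only 2 arrays per group remain. The cause of the other shifts was not tested.

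Differences near 0 changed sign. With normexp the values were Mcm2 -0.028, Cdc6 -0.049, Ccnb2 -0.020 and Tpx2 -0.037. With median scaling they were Cdc6 -0.026, Rrm1 -0.015, Ccnb2 -0.022, Cdk1 -0.021 and Tpx2 -0.018, and with the mean of all kept probes Ccne1 0.026 and Birc5 -0.0032. Within slide 1 they were Mcm2 -0.12, Mcm3 -0.13, Mcm6 -0.0029, Cdc6 -0.27, Pcna -0.056, Rrm1 -0.092, Cdk1 -0.11, Plk1 -0.022, Tpx2 -0.048 and Top2a -0.011. Within slide 2 they were Rrm2 0.098, Ccne2 0.12, Ccnb2 -0.053, Aurka -0.013 and Cenpe -0.00013. Without 1 array in turn the replication genes ranged from -0.076 to 0.15 for Mcm2, -0.064 to 0.069 for Mcm3, -0.0070 to 0.13 for Mcm6, -0.096 to 0.072 for Cdc6, -0.032 to 0.11 for Pcna, -0.079 to 0.062 for Rrm1, -0.19 to 0.054 for Rrm2, -0.16 to 0.018 for Ccne1 and -0.42 to 0.088 for Ccne2. The mitotic genes ranged from -0.098 to 0.085 for Ccnb2, -0.060 to 0.11 for Cdk1, -0.0020 to 0.10 for Plk1, -0.021 to 0.14 for Aurka, -0.037 to 0.24 for Bub1, -0.077 to 0.12 for Tpx2, -0.048 to 0.21 for Cenpe and -0.0011 to 0.15 for Mki67. The replicate block changed no call among the members, whose count was 0 with and without it. The alternatives for the slide comparison were chosen after seeing the data, and the mitotic median between slides stayed between 0.21 and 0.43 in all of them.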
